A study of Mus musculus with 6 samples.

Results

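Mouse genes named Zfp followed by a number encode zinc finger proteins, most of which carry tandem C2H2 fingers that bind DNA. Of 364 such protein-coding genes in the count table, not counting Zfp36, 300 (82.4%) reached at least 1 CPM (counts per 1000000 counts of the library) in each of 6 libraries of LβT2 cells, and these 300 are described here. They were selected on these measured levels, so that their being expressed is not a result. LβT2 is an immortalized mouse gonadotrope line of the anterior pituitary, used at passage 14. All libraries came from cells given gonadotropin-releasing hormone (GnRH, 2 nM for 40 min), so no untreated cells enter the comparison. The 3 fresh libraries were made from cells lysed directly after trypsin treatment, and the 3 RNA-Best libraries from cells kept in the stabilizing buffer RNA-Best in the cold over at least 4 days before lysis. The comparison asks whether storage in RNA-Best changed the measured levels of these genes.

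A C2H2 finger holds a zinc ion between a pair of cysteines and a pair of histidines, and each finger reads a few bases of DNA. In many Zfp proteins a KRAB box at the amino end recruits the corepressor TRIM28, which brings histone methylation by SETDB1 and heterochromatin protein 1 to the target, often a retroelement or an imprinted locus. KRAB zinc finger genes multiplied by tandem duplication and stand in clusters, so that neighbours can be nearly identical in sequence. Numbered Zfp genes without a KRAB box include other transcription factors, RNA-binding proteins and ubiquitin ligases.

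The pattern of a finger, read in the longest coding transcript, was found in 293 of the 300 genes, with a median of 11 fingers and at most 36. A KRAB box was called in 181 genes with a sequence profile, and 119 had none. Genes with a KRAB box had a median of 12 fingers and those without it a median of 7. To show what the members share, the coding DNA of 1 finger and the linker after it is given below for the genes with the 2 highest log2 fold changes (Zfp871 and Zfp445) and for a member that fell (Zfp787), read 5′ to 3′ on the coding strand, with the codons of the zinc-holding cysteines and histidines in capitals.
Zfp871: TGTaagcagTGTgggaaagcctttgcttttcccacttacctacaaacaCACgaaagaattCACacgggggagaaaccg
Zfp445: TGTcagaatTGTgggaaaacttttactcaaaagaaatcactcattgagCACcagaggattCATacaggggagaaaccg
Zfp787: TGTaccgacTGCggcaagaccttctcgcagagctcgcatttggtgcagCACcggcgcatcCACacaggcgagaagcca
In the GRCm38 assembly these lie in coding exons at chr17:32775456-32775533, chr9:122852892-122852969 and chr7:6132888-6132965, all on the minus strand. The stretches of Zfp871 and Zfp445 differed at 28 of 78 bases, and those of Zfp871 and Zfp787 at 38. The last 15 bases encode the linker between fingers. A linker of this kind was found by pattern in 176 of the 181 KRAB genes and in 66 of the 119 others.

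Near-identical copies matter for the counts. Zfp966, Zfp967 and Zfp969, KRAB genes of 1 cluster on chromosome 2, have the same 78 bases in the corresponding finger, at chr2:175921202-175921279 (minus strand), chr2:176530825-176530902 (plus strand) and chr2:175693800-175693877 (minus strand).
Zfp966: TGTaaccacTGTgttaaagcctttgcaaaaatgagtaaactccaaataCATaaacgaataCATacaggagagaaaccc
Zfp967: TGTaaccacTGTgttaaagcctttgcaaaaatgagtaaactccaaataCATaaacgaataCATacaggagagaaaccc
Zfp969: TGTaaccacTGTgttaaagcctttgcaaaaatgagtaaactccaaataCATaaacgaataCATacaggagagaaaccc
Every window of 100 bases in the transcripts of Zfp967 and Zfp969 also occurred in a transcript of another gene, as did 78.7% of those of Zfp966. Among the 300 genes, 185 shared no such window, 115 shared at least 1 and 11 shared over 50% of their windows. Deposited values that were not whole numbers, a sign of divided reads, occurred in 144 members, 103 of them with a KRAB box, and 79 of the 144 also shared a window. Levels of genes that share most of their windows, such as Zfp967 and Zfp969, cannot be assigned to 1 copy, and the values of Zfp967 (1.29, 1.24 and 1.16 CPM in fresh, 1.73, 2.31 and 2.07 in RNA-Best) and Zfp969 (1.30, 1.23 and 1.16, then 1.68, 2.31 and 2.07) were nearly equal. In 98 members the gene span also overlapped another annotated gene, and the strand setting of the counting is not given in the sources used here.

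The libraries held 14477304 to 47438746 counts in fresh and 4909418 to 11999363 in RNA-Best, so each fresh library was deeper than each RNA-Best library, and 0 counts allow up to 0.0632 to 0.611 CPM. All 7 gonadotrope markers were detected, and those whose groups did not overlap went both ways. Cga stood at 1792 to 1831 CPM in fresh and 1410 to 1448 in RNA-Best, Nr5a1 at 435 to 439 and 372 to 387, Pitx1 at 657 to 689 and 568 to 605, and Gnrhr at 109 to 125 and 159 to 173 CPM. Gh was at 0 in all libraries but fresh 2 (0.0632 CPM), and Prl, Pou1f1, Dcn and Ptprc were at 0 in all. Of the endothelial markers, Pecam1 stood at 41.8 to 43.1 CPM in fresh and 37.7 to 40.7 in RNA-Best and Cdh5 at 147 to 150 and 157 to 169 CPM, and Tshb, a thyrotrope marker, at 0.765 to 1.04 CPM in fresh and 1.22 to 2.28 in RNA-Best. Cd74 stood at 0.484 to 1.02 CPM, and Col1a1, Tbx19 and Pomc reached at most 0.173, 0.204 and 0.0691 CPM. The part of these markers in the results below was not tested. Whether replicate libraries derive from distinct cultures is not given in the sources used here, so p-values measure the spread between these libraries, which may be technical.

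Levels spanned a wide range. The mean level of a member over the 6 libraries ran from 1.33 CPM in Zfp712 to 250.0 CPM in Zfp91, with a median of 16.1 CPM. Genes with a KRAB box had a median of 10.1 CPM and those without it 31.9 CPM. Per exonic length the medians were 2.65 and 5.93 CPM per kb, against 8.46 in the 11308 other protein-coding genes at the same floor.

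The highest levels per exonic length were those of Zfp706, a small protein with a single finger. It stood at 44.6 ± 1.15 CPM per kb in fresh and 42.7 ± 1.14 in RNA-Best (SD over 3 libraries each, as for the next genes). Zfp598, the ubiquitin ligase that senses collided ribosomes, followed with 34.4 ± 0.989 and 32.5 ± 1.11 CPM per kb. Zfp207, a spindle assembly protein, had 25.8 ± 0.527 and 29.3 ± 1.35. In fresh libraries the order of these 3 was separated by more than their SDs. Zfp91, a ubiquitin ligase of NF-κB signalling, had 23.1 ± 0.624 in fresh and 26.6 ± 0.485 in RNA-Best, and Zfp266, the KRAB gene among these 5, had 20.8 ± 0.770 and 27.3 ± 0.678. In RNA-Best the levels of Zfp91 and Zfp266 differed by less than the sum of their SDs.

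At the other end lay the floor of the rule. Just inside it were Zfp300, with a lowest value of 1.02 CPM, and Zfp969 and Zfp712, each with 1.16 CPM. Just outside were Zfp697 (0.942 CPM), Zfp953 (0.829 CPM) and, tied at 0.815 CPM, Zfp423, Zfp455 and Zfp786. Of the 64 genes left out, 9 had no count in any library, 37 had counts but stayed under 1 CPM in each library, and 18 were under it in some libraries.

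RNA-Best libraries showed higher levels of many numbered Zfp genes and lower levels of few. In edgeR (quasi-likelihood test, p adjusted by the Benjamini-Hochberg method over the 14736 genes tested), 127 of the 300 members were higher in RNA-Best at a false discovery rate of 5%, 14 were lower and 159 passed in neither direction. All 300 members passed the filter of the test. The called members made up 47%, against 50.8% of all genes tested. By direction they were 42.3% higher and 4.67% lower, against 26.0% higher and 24.8% lower over all genes tested. In the other protein-coding genes at the same floor, 28.6% were higher and 27.5% lower. The median log2 fold change was 0.17 in the members (quartiles -0.02 and 0.32) and -0.01 in the other protein-coding genes.

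The changes were small in most members. An absolute log2 fold change under 0.5 was found in 265 of the 300. Higher by at least 1 on the log2 scale and past the test were 4 of the 300 members, against 1.40% of all genes tested. Of the other protein-coding genes at the same floor, 45 of 11308 were. Fresh and RNA-Best values did not overlap in 167 members, or 55.7%, against 57.5% of all genes tested. Summed over the members, the level was 7347, 7365 and 7269 CPM in the fresh libraries and 8447, 8396 and 8364 CPM in the RNA-Best libraries. The 3 RNA-Best sums were all above the 3 fresh sums, with a ratio of means of 1.15 (two-sided exact permutation test, p = 0.1, the lowest value possible with 3 libraries in each group), and the ratio was also 1.15 without Zfp91, the member with the highest level. In such bulk samples, fewer cells that express a gene and less of its RNA per cell cannot be told apart.

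**Figure D1:**
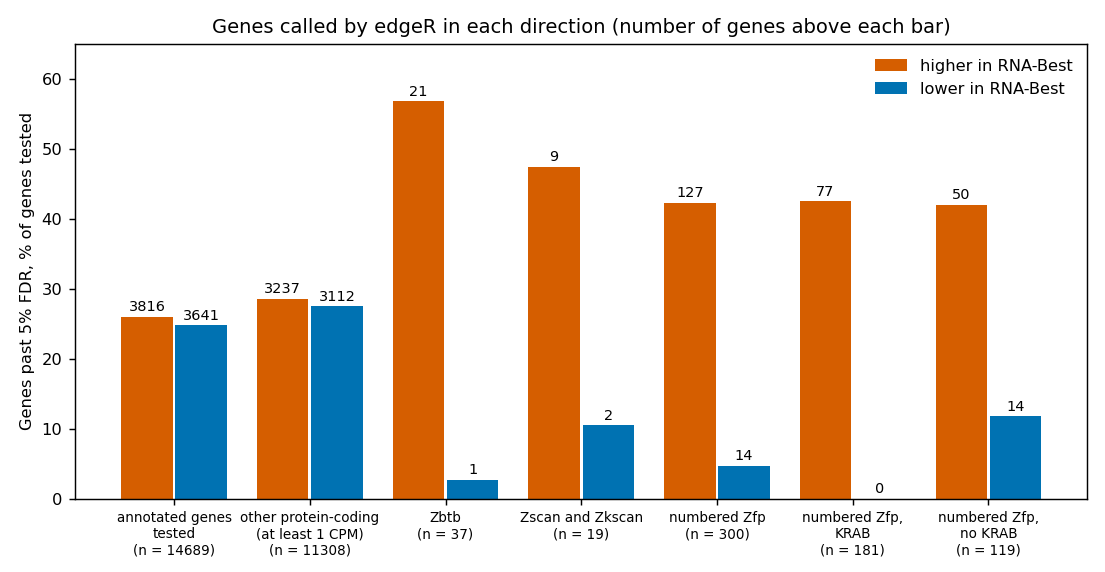
Share of genes (y axis, % of genes tested) past 5% FDR in edgeR and higher (orange) or lower (blue) in RNA-Best than in fresh libraries, for 7 overlapping groups of genes (x axis), with the number of genes above each bar. Numbered Zfp genes had 127 higher and 14 lower, and those with a KRAB box 77 and 0.

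The 14 members that were lower in this fit all lacked a KRAB box. Of the 181 genes with the box, 77 (42.5%) were higher and 0 were lower in RNA-Best, with a median log2 fold change of 0.20. Over all genes tested 26.0% were higher and 24.8% lower. In the same edgeR fit the smallest adjusted p of a KRAB gene with a negative log2 fold change was 0.055, 3 were lower at an unadjusted p under 0.05, and limma-voom and DESeq2 each called 0. Of the 119 genes without the box, 50 (42%) were higher and 14 (11.8%) lower, with a median of 0.10. The summed level of the KRAB genes was 2310, 2319 and 2293 CPM in fresh and 2770, 2790 and 2730 CPM in RNA-Best, a ratio of 1.2, and the ratio for the others was 1.12 (p = 0.1 in both by the same exact permutation test). With a stricter pattern for the KRAB core, 74 genes counted as KRAB genes, of which 29 were higher and 0 lower. KRAB genes had lower levels and a lower GC content, with a median of 42.2%, than genes without the box, at 49.7%. With an offset for GC content in the fit, 42 KRAB genes were higher and 10 lower, and 40 and 14 of the genes without the box, against 21.8% higher and 26.4% lower over all genes tested in that fit. The medians were then 0.06 in KRAB genes and 0.09 in the others, so that the order of the medians turned. Without RNA-Best replicate 1, 2 KRAB genes passed as lower, and without fresh replicate 2, 1 did. Lower KRAB genes also numbered 5 with the length offset, 4 without a low count filter, 1 after thinning and 2 with replicate block and length offset. In the same order 66, 58, 52 and 63 KRAB genes were higher, and 25.4%, 16.1%, 19.6% and 25.4% of all genes tested were lower.

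Other zinc finger families were counted in the same way, beside 26.0% higher and 24.8% lower over all genes tested. Of 37 Zbtb genes at the same floor, which join C2H2 fingers to a BTB domain, 21 were higher and 1 lower, with a median log2 fold change of 0.18. Of 19 Zscan and Zkscan genes, which carry a SCAN domain, 9 were higher and 2 lower, with a median of 0.16. The 12 members with a SCAN box had 8 higher and 1 lower. By number of fingers, 12 of 35 members with 1 to 4 fingers were higher and 8 lower, 28 and 4 of 87 with 5 to 9, 54 and 0 of 110 with 10 to 14, and 32 and 0 of 61 with 15 or more. Of the 7 members without the pattern of a finger 1 was higher and 2 were lower. Of the 171 members with 10 fingers or more, 2 were lower at an unadjusted p under 0.05 in edgeR, and limma-voom and DESeq2 each called 0. Median GC content was 48.6% with 1 to 4 fingers and 40.7% with 15 or more. Across the 300 members, which share the 6 libraries, Spearman's rho of the log2 fold change was 0.298 with the number of fingers and -0.345 with GC content, given as a description.

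Zfp871 changed most. Its levels were 6.65, 6.20 and 5.94 CPM in fresh and 30, 29.5 and 27.7 CPM in RNA-Best. This was a 4.50-fold difference (log2 fold change 2.17 ± 0.079 SE, adjusted p = 2.53e-21 in edgeR), and 0 of the 11308 other protein-coding genes at the floor had a higher log2 fold change. Zfp871 is a KRAB gene with 15 fingers on the minus strand of chromosome 17 (chr17:32765496-32788287), with 11116 exonic bases. Some of its values held parts of counts, although 0 of its 100-base windows occurred in a transcript of another gene, and its span overlapped no other annotated gene.

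Zfp445 came next. It encodes a KRAB protein known to keep DNA methylation at imprinted loci. It stood at 11.6, 12.0 and 9.74 CPM in fresh and 34.7, 28.7 and 31.5 CPM in RNA-Best, 2.76-fold higher (log2 fold change 1.46 ± 0.075 SE, adjusted p = 1.26e-17 in edgeR). The groups lay far apart, its counts were whole numbers and its transcript shared no window with another gene. Its gene lies at chr9:122844529-122866006 with 7409 exonic bases.

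Zfp169 and Zfp109, both KRAB genes, were the remaining members at a log2 fold change above 1. Zfp169 had 2.32, 2.28 and 2.28 CPM in fresh and 6.04, 5.50 and 4.83 CPM in RNA-Best (2.32-fold, adjusted p = 1.73e-08 in edgeR). Zfp109 had 2.89, 2.81 and 2.21 CPM in fresh and 6.84, 5.09 and 5.25 CPM in RNA-Best (2.07-fold, adjusted p = 2.95e-07). Each rests on few reads, with 27 counts of Zfp169 and 25 of Zfp109 in RNA-Best replicate 2, the shallowest library.

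The other 6 of the 10 highest changes were from 1.63-fold to 1.74-fold. Zfp292, a long protein without a KRAB box, had 113, 109 and 105 CPM in fresh and 189, 192 and 179 CPM in RNA-Best (log2 fold change 0.75 ± 0.035 SE, adjusted p = 1.1e-18 in edgeR). Zfp462, known for its binding to heterochromatin proteins and its 33 fingers here, had 44.1, 47.2 and 42.8 CPM in fresh and 72.9, 72.9 and 76.1 CPM in RNA-Best (log2 fold change 0.71 ± 0.046 SE, adjusted p = 7.63e-15). Both were well above their spread in the libraries. Zfp26 (19.7, 19.8 and 20.3 CPM in fresh, 37.6, 35.2 and 30.9 in RNA-Best) and Zfp317 (13.9, 14.2 and 12.1, then 24.8, 23.4 and 21.6) are KRAB genes of 1 run on chromosome 9. Zfp612 had the widest spread of these relative to its mean in RNA-Best, with 3.01, 2.93 and 2.76 CPM in fresh and 4.56, 7.33 and 4.08 CPM in RNA-Best. Zfp966, most of whose windows also occur in its copies, had 1.65, 1.58 and 1.44 CPM and then 2.34, 3.20 and 2.96 CPM.

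**Figure D2:**
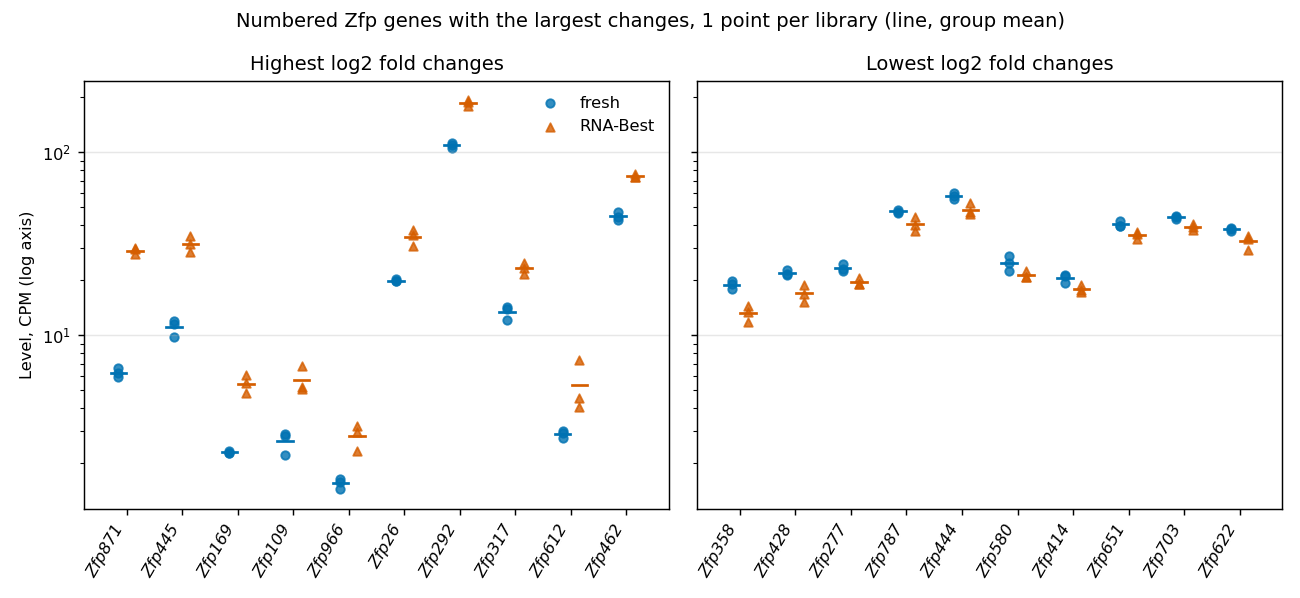
Level (y axis, CPM, log axis) of the members with the 10 highest (left) and 10 lowest (right) log2 fold changes among those past 5% FDR whose groups do not overlap, with 1 point per fresh (blue circles) or RNA-Best (orange triangles) library and lines at the group means. Zfp871 rose from a mean of 6.26 to 29.1 CPM, and Zfp358 fell from 18.9 to 13.2 CPM.

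Decreases were smaller than these increases. Zfp358 fell most, from 19.0, 17.9 and 19.8 CPM in fresh to 14.5, 11.8 and 13.4 CPM in RNA-Best (log2 fold change -0.48 ± 0.083 SE, adjusted p = 7.36e-06 in edgeR). Zfp428 had 21.7, 21.3 and 22.7 CPM in fresh and 16.9, 15.3 and 18.9 CPM in RNA-Best (log2 fold change -0.32 ± 0.075 SE, adjusted p = 0.000471). In both, each RNA-Best value was under each fresh value. Zfp787 and Zfp444, neighbours on chromosome 7, fell by 0.23 each on the log2 scale. Zfp444 had 55.9, 57.9 and 60 CPM in fresh and 47.5, 45.8 and 52.8 CPM in RNA-Best, and Zfp787 had 46.8, 48.5 and 47.5 CPM and then 44.1, 37.3 and 40.2 CPM. Zfp277, which binds the Polycomb protein Bmi1, had 22.9, 22.5 and 24.5 CPM and then 20.5, 19.1 and 19.0 CPM. The remaining 5 of the 10 were Zfp580, Zfp414, Zfp651, Zfp703, a corepressor, and Zfp622, which acts in maturation of the large ribosomal subunit. Their log2 fold changes lay between -0.22 and -0.19.

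The lower calls were sensitive to single libraries, to depth and to the offsets. Without RNA-Best replicate 3, 8 members in place of 14 were lower, and over all genes tested 19.8% in place of 24.8%. In that fit Zfp277 (log2 fold change -0.21), Zfp414 (-0.16), Zfp580 (-0.19), Zfp651 (-0.15) and Zfp703 (-0.16) no longer passed. Without fresh replicate 2, Zfp414 (-0.17) was not called, and without RNA-Best replicate 1, Zfp580 (-0.20). DESeq2's Wald test called 8 members lower, and 18.7% of all genes tested. With the GC offset, Zfp414, Zfp580, Zfp651 and Zfp703 were not called either. The length offset ended the calls of Zfp414 (-0.14) and Zfp580 (-0.10). With the libraries thinned to the smallest, Zfp428 (-0.25), Zfp277 (-0.18) and Zfp622 (-0.15) were not called.

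Longer members had higher log2 fold changes. Spearman's rho of the change with exonic length was 0.322 across members, 0.234 across KRAB genes and 0.527 across members without the box, and 0.648 across the 11308 other protein-coding genes, given as a description. Among members with an exonic length over 2 and up to 4 kb, 27 of 109 were higher and 4 lower, with a median log2 fold change of 0.09. From 4 to 6 kb, 40 of 90 were higher and 4 lower (median 0.17), from 6 to 10 kb 38 of 65 and 2 (median 0.22), and over 10 kb 19 of 24 and 1 (median 0.36). The other protein-coding genes had medians of -0.11, 0.02, 0.15 and 0.32 in the same bins. Members thus had the higher median in each of these bins, by 0.20 between 2 and 4 kb and by 0.03 over 10 kb. Between 2 and 4 kb, 6% of the other protein-coding genes were higher in RNA-Best and 42.3% lower, and of the members 24.8% and 3.67%. From 4 to 6 kb the shares were 25.8% and 19.6% against 44.4% and 4.44% of members, and from 6 to 10 kb 52.2% and 8.61% against 58.5% and 3.08%. Over 10 kb 78.9% of the other genes and 79.2% of members were higher, and 2.14% and 4.17% lower. In the bin from 2 to 4 kb the 79 KRAB genes had a median of 0.15 and the 30 genes without the box one of -0.05. With an offset for length in the fit, 92 members were higher and 26 lower, with a median of 0.10, and the other protein-coding genes had a median of -0.06. Of all genes tested with this offset, 15.5% were higher and 25.4% lower. With the GC offset 82 members were higher and 24 lower, with medians of 0.08 and -0.03, and of all genes tested 21.8% were higher and 26.4% lower. Of members called in either direction, fewer were thus on the higher side under each offset than the 127 of 141 without it.

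**Figure D3:**
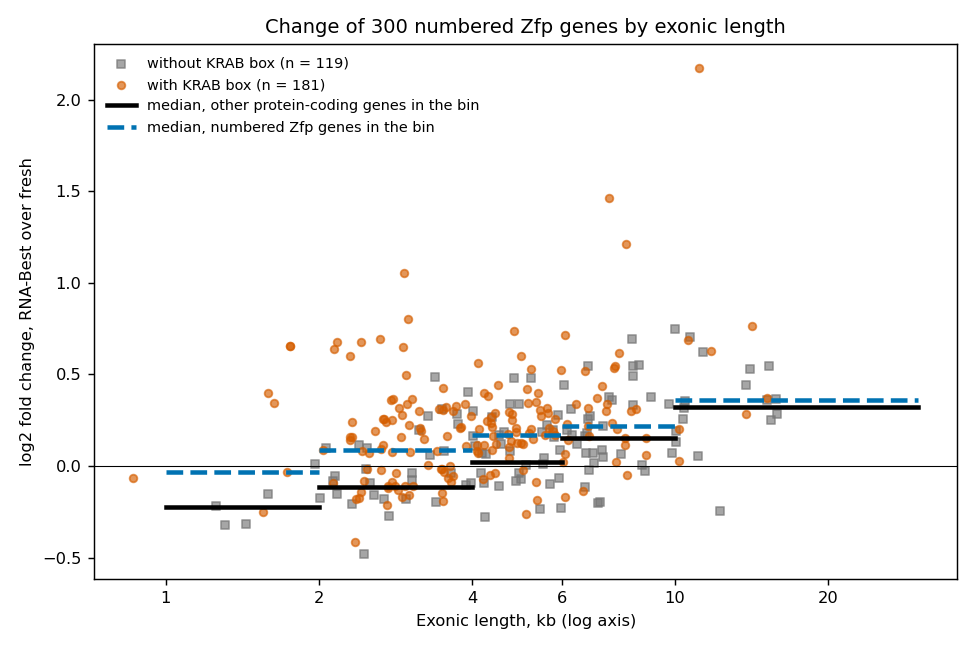
Log2 fold change of RNA-Best over fresh (y axis) against exonic length (x axis, kb, log axis) for 181 members with (orange circles) and 119 without (grey squares) a KRAB box. The median of the members (dashed blue lines) lay above that of the other protein-coding genes (black lines) in each length bin, with 0.09 against -0.11 between 2 and 4 kb and 0.36 against 0.32 over 10 kb.

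By GC content, 64 members up to 40% had 32 higher and 0 lower calls and a median log2 fold change of 0.26, against 0.13 in 603 other protein-coding genes. Of those other genes 44.4% were higher and 9.62% lower, and of the members 50% and 0%. Above 55%, 41 members had 4 higher and 10 lower calls and a median of -0.05, against -0.12 in 2742 other genes. Here 11.9% of the other genes were higher and 42.9% lower, and of the members 9.76% and 24.4%. Of the 14 lower members, 10 were thus in the bin with the highest GC content. By level, 9 of 32 members up to 3 CPM in fresh were higher and 37 of 69 above 30 CPM, with lower calls of 0 and 8. Of the other protein-coding genes, 13.1% were higher and 2.95% lower up to 3 CPM, and 32.5% and 36.5% above 30 CPM, where 53.6% of the members were higher and 11.6% lower. Members with divided reads had 66 higher and 3 lower of 144, and those with whole counts 61 and 11 of 156, against 26.0% higher and 24.8% lower over all genes tested.

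Members stood in clusters. Runs of at least 5 members with gaps of at most 1 Mb numbered 16 and held 153 members, of which 121 had a KRAB box. In these runs 59 members were higher and 6 lower, and outside them 68 and 8, against 26.0% higher and 24.8% lower over all genes tested. The run with the most members, from Zfp160 to Zfp13 on chromosome 17, had 23 members over 2.59 Mb, with 10 higher, 0 lower and a median log2 fold change of 0.21. The run from Zfp968 to Zfp931 on chromosome 2 had the highest median, 0.50, with 5 of 10 higher, but all 10 had divided reads. The run with the lowest median, -0.11, went from Zfp787 to Zfp772 on chromosome 7, with 1 higher and 2 lower of 10.

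Neighbours differed in some runs and went the same way in others. On chromosome 8, log2 fold changes in the run from Zfp930 to Zfp866 went from 0.16 to 0.54. On chromosome 7 they went from 0.09 to 0.70 in the run from Zfp551 to Zfp446. The run from Zfp60 to Zfp850, also on chromosome 7, had 0.14 to 0.36. In the run of 9 members on chromosome 17 that starts at Zfp871, Zfp101 was 1.53-fold higher and Zfp472 had a ratio of 0.990 (these members are named after their values were seen). The log2 fold changes in this run went from -0.21 to 2.17. In the run of 12 KRAB genes on chromosome 13, 0 passed in edgeR in either direction. Of all KRAB members 42.5% were higher, and of all genes tested 26.0% were higher and 24.8% lower. The median of this run, 0.18, was near the 0.20 of all KRAB members. Divided reads occurred in 6 of its 12 genes, and its first gene, Zfp712, had the lowest mean level of the members (1.33 CPM). In this run 2 genes were higher and 0 lower at an unadjusted p under 0.05, voom called 1 higher and DESeq2 called 0.

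**Figure D4:**
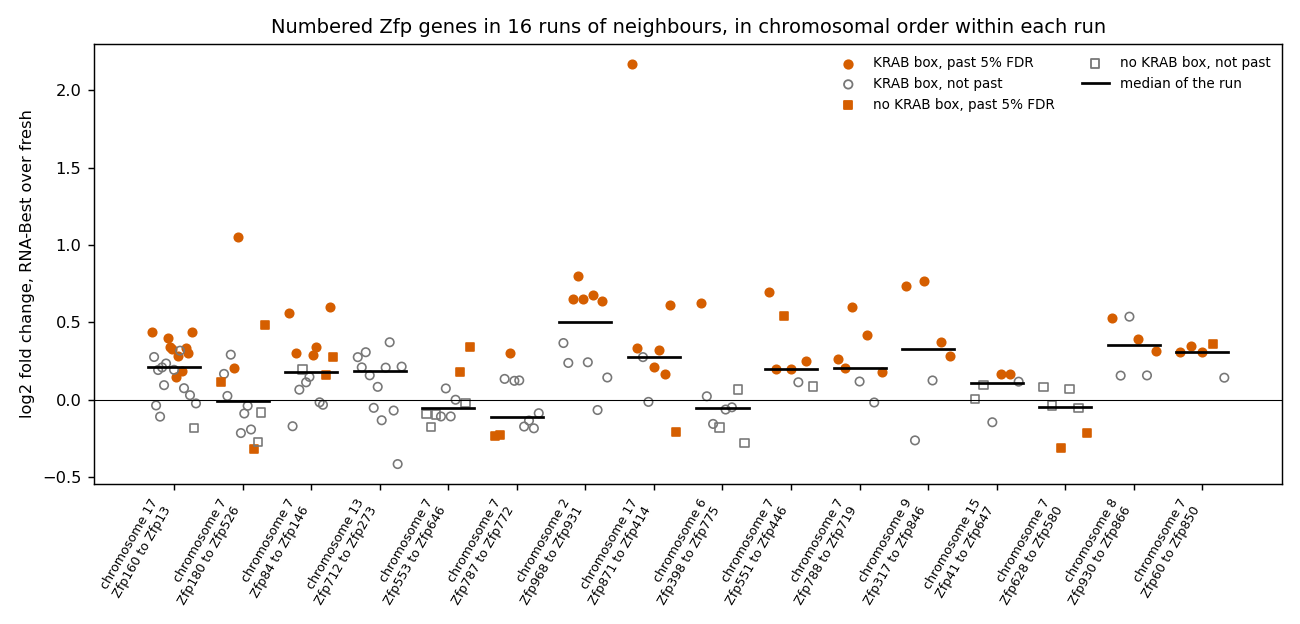
Log2 fold change of RNA-Best over fresh (y axis) of the 153 members in 16 runs of neighbouring genes (x axis, chromosome with the first and last gene of the run), in chromosomal order within each run. Filled points passed 5% FDR, circles have a KRAB box, and black lines are run medians, which went from -0.11 to 0.50.

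Of 7 measured members listed as repressors of retroelements, imprinted genes and other targets, 4 were higher and 0 lower, with a median log2 fold change of 0.32, against 26.0% and 24.8% of all genes tested. With the length offset 4 were higher and 1 lower, against 15.5% and 25.4% of all genes tested in that fit. Besides Zfp445, Zfp92, an X-linked KRAB gene, had 53.0, 53.5 and 49.5 CPM in fresh and 66.8, 70.5 and 63.3 CPM in RNA-Best (adjusted p = 5.64e-07 in edgeR). Zfp568, which silences a placental Igf2 transcript, had 21.5, 20.3 and 19.9 CPM and then 29.3, 28.9 and 23.3 CPM (adjusted p = 0.000168). For both, all RNA-Best values were above all fresh values. Zfp932, a repressor of endogenous retroviruses, had 19.8, 18.4 and 19.4 CPM in fresh and 18.6, 19.5 and 19.8 CPM in RNA-Best, and its groups overlapped. Zfp57, the other known keeper of imprints, had 2 counts over all libraries and Zfp708 had 1, so neither was a member.

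Of 11 members whose proteins act on RNA, ribosomes or ubiquitin, 5 were higher and 2 lower, with a median log2 fold change of 0.07, against 26.0% higher and 24.8% lower over all genes tested. With the length offset 0 were higher and 4 lower, against 15.5% and 25.4% of all genes tested in that fit. Zfp91 had 240, 229 and 229 CPM in fresh and 272, 262 and 268 CPM in RNA-Best (adjusted p = 2.67e-06 in edgeR), Zfp207 169, 176 and 170 and then 185, 198 and 201 CPM (adjusted p = 0.000105). Zfp106, an RNA-binding protein needed in motor neurons, had 123, 124 and 115 CPM and then 155, 149 and 154 CPM (adjusted p = 2.15e-09). With the length offset none of these 3 was called higher, and the log2 fold change of Zfp91 was -0.07. Zfp207 was not called with the GC offset either (log2 fold change 0.02). Zfp706 had 220, 218 and 229 CPM in fresh and 207, 213 and 218 CPM in RNA-Best, overlapping groups with an adjusted p of 0.0644. It passed as lower in 7 of 16 alternatives, with log2 fold changes of -0.08 with the replicate block, -0.13 with the length offset, -0.14 with both, -0.20 with the GC offset and -0.12 with no filter, and of -0.09 without RNA-Best replicate 3 and -0.09 without fresh replicate 2. Besides Zfp622, Zfp598 was the member called lower, with 131, 138 and 133 CPM and then 131, 126 and 122 CPM (adjusted p = 0.0183), and it was not called without RNA-Best replicate 3 (log2 fold change -0.07) or fresh replicate 2 (-0.08). DESeq2's Wald test (-0.10) and thinning (-0.08) also ended its call, and with the GC offset its log2 fold change was 0.01. Zfp593 had 139 counts over all libraries and was no member.

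Of 21 members listed as sequence-specific transcription factors or coregulators, 15 were higher and 2 lower, with a median log2 fold change of 0.31, against 26.0% and 24.8% of all genes tested. Their median exonic length was 6139 bases. With the length offset 11 were higher and 4 lower, against 15.5% and 25.4% of all genes tested in that fit. Besides Zfp292, Zfp148, a factor that binds GC-rich promoters, had 129, 123 and 123 CPM in fresh and 151, 147 and 153 CPM in RNA-Best (adjusted p = 9.48e-08 in edgeR), but a log2 fold change of -0.01 with the length offset. Zfp592, a partner in a chromatin reader complex with Zfp687, had 53.8, 53.8 and 52.6 CPM and then 71.2, 71.1 and 68.8 CPM (adjusted p = 3.46e-09). Zfp592 was called higher under each alternative tried. Zfp219, a cofactor of Sox9, had 80.2, 81.0 and 83.4 CPM and then 77.7, 83.5 and 70.8 CPM, with an adjusted p of 0.0378 although the groups overlapped, and leaving out RNA-Best replicate 1 or 3 or fresh replicate 2 or 3 ended the call (log2 fold changes -0.13, -0.04, -0.12 and -0.10). So did DESeq2's Wald test (-0.10), the replicate block (-0.10) and thinning (-0.05), and with the GC offset the sign turned (0.02). Zfp423, Zfp536, Zfp711 and Zfp521 were no members, with 195, 78, 3 and 0 counts over all libraries.

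The corepressor genes through which KRAB proteins act are no members and were set beside them. Of 19 genes for KRAB cofactors and heterochromatin proteins, 12 were higher and 2 lower in RNA-Best, with a median log2 fold change of 0.20, against 26.0% and 24.8% of all genes tested. With the length offset 6 were higher and 5 lower, against 15.5% and 25.4% of all genes tested in that fit. Trim28, the protein that KRAB boxes bind, fell from 557, 571 and 575 CPM to 501, 500 and 502 CPM (log2 fold change -0.19 ± 0.027 SE, adjusted p = 2.57e-07 in edgeR), and by 0.08 on the log2 scale with the GC offset, where it was still called. The second lower gene was Hdac1, a histone deacetylase, named after its value was seen. Dnmt1, the maintenance DNA methyltransferase, had 542, 547 and 522 CPM and then 604, 599 and 606 CPM (adjusted p = 1.27e-05), but a log2 fold change of -0.01 with the length offset. Chd3, a chromatin remodeller, had 340, 344 and 323 CPM and then 395, 396 and 392 CPM (adjusted p = 1.13e-07), but was not called with the length offset (log2 fold change 0.01). Uhrf1, which guides Dnmt1 to newly made DNA, had 341, 327 and 323 CPM and then 324, 327 and 313 CPM, overlapping groups with an adjusted p of 0.094. It passed as lower with the length offset (log2 fold change -0.08), also with the replicate block added (-0.08), with no filter (-0.11) and without fresh replicate 3 (-0.07).

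Promoters of 252 members were found in the RefSeq table of GRCm38.p6, from 250 bases before to 50 after a start, 304 promoters in all. Short motifs were searched on both strands, and none of them contains another. CCGGAAG, a core of ETS factor sites, stood in 23.0% of members' promoters and in 26.1% of those of KRAB genes, against 17.9% for the other protein-coding genes at the floor and 8.86% of all promoters. CCAAT stood in 48.0%, against 38% and 37.4%. GGGCGG, the core of a GC box, stood in 32.6% of promoters of KRAB genes and 62.5% of those of members without the box, against 64.8% for the other protein-coding genes at the floor and 35.7% of all promoters. ACTACAA, found in sites of the factor encoded by Zfp143, was in 6.25% of members' promoters, 4.27% of those of the other protein-coding genes and 3.24% of all promoters. The share with TATAAA, the core of a TATA box, was 6.25% in members, 6.42% in the other protein-coding genes at the floor and 13.6% in all. In members that were higher and members not called, in this order, the share with CCGGAAG was 21% and 25.1%, and the share with the CCAAT motif 44.4% and 52.1%. These matches describe letters, not bound sites.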

How the data were processed

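Estimated counts per gene were deposited for 6 libraries. The authors aligned single reads with STAR 2.5.1b to GRCm38 and counted them with featureCounts 1.5.0-p1, without scaling. Up to 16.3% of values per library were not whole (tolerance 0.001), so some reads were divided (the setting is not given in the sources used here), and values were rounded for the count models.

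Counts were tested in R 4.3.3 with edgeR 4.0.16 (quasi-likelihood test, TMM, filterByExpr with a minimum count of 10, Benjamini-Hochberg adjustment). Limma 3.58.1 (voom, the test of the study) and DESeq2 1.42.0 were alternatives. In counts simulated over 14590 genes, edgeR called 44% of genes set to differ 1.2-fold, 100% of genes set to differ 4-fold and 10 genes falsely. Only 48 to 50 genes were changed at each fold set. In the real comparison 50.8% of genes were called, so these rates may not carry over to it. CPM are deposited values over the library total. Depth was 4909418 to 47438746 counts.

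Symbols, exonic lengths, GC content and proteins came from a later GENCODE release on GRCm38, which matched 46574 of 47069 genes. Fingers were counted by pattern. The planned core pattern of the KRAB box found 74 members, so a profile built from 64 boxes (pyhmmer 0.12.3, E up to 1e-05) was used, a choice made after seeing the data.

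Members, gene lists and tests were chosen with earlier results of these data known. Named are the 10 highest and 10 lowest log2 fold changes among members past 5% FDR with groups that do not overlap, the 5 highest levels per kb, the 4 highest levels in each list, and genes at the edge of the floor. Where the third gene outside the floor was tied, the tied genes are named. Scaling, filter, test, fold threshold, replicate block, length and GC offsets, thinning, membership and single libraries were varied. Spike-ins, single-cell and qPCR data were not analysed here.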

Additional observations from a re-analysis of the deposited data

How the results depend on the processing

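Without a low count filter, 23 members were lower (4 with a KRAB box) and the median log2 fold change was 0.12, with 11.9% of all genes tested higher and 16.1% lower. Against a 1.2-fold change (glmTreat), 44 members passed, 43 higher (25 with KRAB, 18 without) and 1 lower, which has no KRAB box, against 8.67% higher and 2.82% lower of all genes tested. The length offset gave 26 lower members, 5 with KRAB, 26 higher ones without KRAB and a median of 0.099 (all genes 15.5% higher, 25.4% lower). The GC offset gave 82 higher (42 with KRAB), 24 lower (10 with KRAB) and a median of 0.075 (all genes 21.8% higher, 26.4% lower). DESeq2's Wald test gave 8 lower, all without KRAB (all genes 21.7% higher, 18.7% lower). Thinned to the smallest library, 289 members were tested, with 1 KRAB gene lower and a median of 0.18 (all genes 21.3% and 19.6%). The 156 members with whole counts had 72 calls, 61 higher (32 with KRAB, 29 without) and a median of 0.14, fewer since fewer genes enter. The causes of the other shifts were not tested.

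The replicate numbers did not pair the libraries (correlations of deviations -0.00736, 0.0102 and -0.00784). The replicate block gave 142 calls, 126 higher and 16 lower (all genes 25.9% higher, 24.8% lower). Block and length offset together gave 23 lower (2 with KRAB), 25 higher without KRAB and a median of 0.091 (all genes 15.1% and 25.4%).

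Leaving out 1 library gave 113 to 137 calls, 105 to 125 higher, 8 to 14 lower, 61 to 77 KRAB genes higher and 0 to 2 lower, 44 to 48 genes without KRAB higher and 8 to 14 lower, medians of 0.167 to 0.179, and a ratio of summed levels of 1.14 to 1.15. Of all genes tested in these fits, 22.6 to 25.5% were higher and 19.8 to 23.9% lower. Median-ratio size factors (143 calls), voom (142) and membership by mean level (142) stayed within 1.5 times the 141 calls. All genes tested had 26.3% higher and 24.3% lower with these size factors, and 26.4% and 24.3% with voom.

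The 10 highest log2 fold changes passed in the same direction under all 16 alternatives each. Signs turned for Zfp148 (-0.0094 with the length offset, -0.0175 with block and length offset), Zfp91 (-0.0675 and -0.0726) and Dnmt1 (-0.0116 and -0.0104). With the GC offset they turned for Zfp219 (0.0215) and Zfp598 (0.0101). The sign of Zfp300 turned without RNA-Best replicate 2 (0.0675), and its value went down to -0.3609 without RNA-Best replicate 3. Zfp932 was near 0, and its sign turned with the GC offset (-0.1949), without a filter (-0.0399) and with the replicate block (-0.0134). Its sign also turned without RNA-Best replicate 3 (-0.0193) and without fresh replicate 2 (-0.0385). Zfp932 stood at 0.041 without fresh replicate 1, and at most at 0.0619, when thinned to the smallest library. Depth limits members of few reads: the lowest count of a member in a library was 5.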
